A study of Mus musculus with 32 samples.

Results

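The 32 genes described here are macrophage genes, found in cultures of primary white adipocytes and matched by symbol among the 56748 genes of the deposited count table. The list was picked from measured values of these same libraries, with the higher levels after Nfe2l1 silencing and the fall with cholesterol in cells given a scrambled siRNA in view. Those comparisons are therefore given as values without a test. Which other results of these libraries bore on the choice is not known. All 32 passed the filter on low counts, as did 16984 genes in all. Among the cells of fat, 24 of the 32 are restricted to macrophages and related leukocytes, and these are called the restricted genes below. Other cells of fat also express the remaining 8: Lgals3, Lyz2, Cd14, Ctss, Mrc1, Hpgds, Apobec1 and C5ar1.

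Primary white adipocytes had been generated from subcutaneous adipose tissue of mice, and their poly(A) RNA was sequenced in 32 libraries, 4 in each of 8 groups. Cells received a scrambled siRNA (scramble, labelled wild type), an siRNA against Nfe2l1 (siNfe2l1), an siRNA against Atf3 (siAtf3), or both target siRNAs (double-silenced). Each of these was given control treatment or 400 µM cholesterol on the carrier methyl-β-cyclodextrin for 6 h. The strain, sex and age of the mice, and whether control cells also received the carrier, are not given in the sources used here. Libraries of a group are labelled as biological replicates, with no animal or culture named, so p-values measure the spread between these libraries. An siRNA added to a dish can enter every cell type in it, macrophages included.

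Macrophages live among the adipocytes of white fat, take up debris and lipid from dying adipocytes, and can be carried into primary cultures with the precursor cells. Their growth and survival depend on the receptor encoded by Csf1r and its ligands, and their identity on the transcription factor PU.1, encoded by Spi1. Nfe2l1 encodes a transcription factor of the endoplasmic reticulum membrane that controls proteasome genes and senses cholesterol. Atf3 encodes a transcription factor induced by many stresses. In RNA from a whole culture, fewer cells of a type and less RNA per cell cannot be told apart. A rise of all macrophage genes by the same factor and a rise of single genes can be separated, because each gene can be set against the others.

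PU.1 binds purine-rich DNA around the core GAGGAA, and the promoters of the members were searched for these letters. The core was read on both strands, and each match also holds the shorter core GGAA shared by the ETS family. RefSeq windows of GRCm38.p6 were found for 25 of the 32 members (28 windows), each covering the 250 bases before a transcription start. The core was in 15 of these 28 windows (53.6%) and in 23.3% of all 32851 RefSeq windows of that length. Within the last 100 bases before the start it was in 11 of 28 windows (39.3%) and in 9.82% of all windows. The AP-1 motif TGANTCA, bound by the family that includes ATF3, was in 14.3% of the members' windows and in 6.75% of all. The antioxidant response motif TGACNNNGC, to which NFE2L1 can bind, was in 10.7% and 10.2%. A match is a description of the letters and does not show binding.

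The 100 bases before the start of 6 members are printed to show where the core lies, in capitals as GAGGAA or, for the opposite strand, TTCCTC. They were picked after the matches were seen, to cover an opsonin, a lipid receptor, an endocytic receptor, the pair of secreted proteins that rose most with Atf3 siRNA, and a leukocyte surface protein. Sequences run 5′ to 3′ toward the start, from RefSeq on GRCm38.p6. They lie at chr4:136886201-136886300, minus strand (C1qb), chr17:48346301-48346400, plus strand (Trem2), chr2:14229314-14229413, plus strand (Mrc1), chr3:87357781-87357880, plus strand (Cd5l), chr11:83703956-83704055, plus strand (Wfdc17) and chr3:106790150-106790249, minus strand (Cd53).
C1qb: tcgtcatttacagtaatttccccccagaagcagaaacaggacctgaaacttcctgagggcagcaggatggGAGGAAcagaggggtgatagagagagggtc
Trem2: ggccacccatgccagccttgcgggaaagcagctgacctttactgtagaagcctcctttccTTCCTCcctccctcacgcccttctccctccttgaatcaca
Mrc1: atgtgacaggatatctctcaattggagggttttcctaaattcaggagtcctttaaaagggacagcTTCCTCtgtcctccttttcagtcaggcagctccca
Cd5l: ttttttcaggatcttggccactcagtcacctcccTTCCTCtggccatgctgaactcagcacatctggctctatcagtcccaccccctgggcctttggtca
Wfdc17: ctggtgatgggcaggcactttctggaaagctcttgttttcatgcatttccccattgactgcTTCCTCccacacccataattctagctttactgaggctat
Cd53: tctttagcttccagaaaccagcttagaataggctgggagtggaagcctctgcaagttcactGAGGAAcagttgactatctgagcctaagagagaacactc
The first printed letter of the core lay 30 bases before the start in C1qb, 40 in Trem2, 35 in Mrc1, 66 in Cd5l, 39 in Wfdc17 and 39 in Cd53. On the printed strand the core read GAGGAA in C1qb and Cd53 and TTCCTC in the other 4.

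Library totals were 23457384 to 33828418 counts, all but 1 at or below 28391112. Nfe2l1 stood at 487 ± 6.02 CPM (mean ± SD, n = 4) with scramble and 73.7 ± 8.66 with siNfe2l1 in control medium, and at 479 ± 8.85 with siAtf3 and 114 ± 1.91 in double-silenced cells. CPM are counts brought to a common library size with edgeR's TMM scaling. Atf3 stood at 26.8 ± 2.42 with scramble and 10.1 ± 0.7796 with siAtf3 in control medium, and at 397 ± 129 and 40.9 ± 7.88 in cholesterol. Double-silenced cells had Atf3 at 15.3 CPM in control medium and 50.8 in cholesterol. Nfe2l1 in cholesterol was at 814 CPM with scramble, 120 with siNfe2l1, 743 with siAtf3 and 157 in double-silenced cells. Against scramble in the same medium, the targeted genes were thus low where the labels say they were silenced. Silenced Atf3 in cholesterol stayed above its level with scramble in control medium. Summed markers of adipocytes were at 17260 to 28940 CPM over the 32 libraries, against 194 to 683 CPM for the 24 restricted macrophage genes. Under 10 counts in every library were 8 of 10 T cell markers and 5 of 10 neutrophil markers (Ly6g and S100a9 among them). So were 5 of 7 each for natural killer and dendritic cells, 3 of 7 for B cells and 2 of 8 for mast cells. Other markers of these cells were present. Of the mast cell list 6 genes passed the filter, and the list summed to 11.09 to 20.7 CPM over the 32 libraries. Group means were 1.56 to 4.135 CPM for the mast cell gene Cpa3 and 12.1 to 17.2 CPM for the dendritic list's Zbtb46. Mmp9 of the neutrophil list reached 146 counts. The B cell marker Ighm had group means of 9.58 CPM (siAtf3, control) to 25.95 CPM (scramble, cholesterol). The part of these cells in the results was not tested. Of the macrophage genes outside the list, Cx3cr1 and Ccr2 stayed under 10 counts in every library.

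The macrophage genes were measured at very different levels. Per kilobase of gene model in scramble control cells, Lgals3, a sugar-binding protein, stood highest at 239.2 CPM. It was followed by the lysozyme gene Lyz2 (69.3 CPM per kilobase), the lysosomal protease gene Ctss (36.7), Cd68 (26.8), C1qb (18.3) and Mpeg1 (16.5). Lyz2 has a near-identical neighbour, Lyz1, and how reads that match both were counted is not given. On GRCm39 the C1q genes lie together on chromosome 4, C1qa at 136623228 to 136626114 and C1qb at 136607440 to 136613498, both on the minus strand. At the low end were the haemoglobin scavenger receptor Cd163 (0.235), the leukocyte phosphatase Ptprc (0.339) and the integrin Itgam (0.389). Cd163 had 2 to 107 counts per library and under 10 counts in 9 libraries, so its values carry large counting error.

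The summed level of the 24 restricted genes served as a measure of the macrophage signal in each dish. Related leukocytes can share these genes, and their part in the sum was not tested. With scramble it was 320.1, 362, 353 and 371 CPM in the 4 control libraries and 215, 196, 194 and 216 CPM in the 4 cholesterol libraries. With siNfe2l1 it was 607, 586, 473 and 602 CPM in control medium and 338, 366, 396 and 426 CPM in cholesterol. The siNfe2l1 libraries lay above the scramble libraries of the same medium without overlap, and the cholesterol libraries below the control libraries of the same siRNA. The siNfe2l1 rise and the fall with scramble were in view when the genes were chosen. These separations are therefore a description and not independent of that choice. With siAtf3 the sum was 519.8, 422, 501 and 496 CPM in control medium and 241, 228, 208 and 250.4 CPM in cholesterol. Double-silenced libraries had 608, 614, 623 and 683 CPM in control medium and 293, 309.6, 305 and 331 CPM in cholesterol. They lay above every siAtf3 library of the same medium. In control medium all siAtf3 libraries lay above all scramble libraries, while in cholesterol the siAtf3 range (207.6 to 250.4 CPM) overlapped the scramble range (193.8 to 216). Cd5l made up part of that rise. Without Cd5l the control-medium means were 332 CPM with scramble and 426 CPM with siAtf3, against 351 and 485 CPM for the full sum. In siNfe2l1 control library 3 had 473 CPM and the other 3 had 586 to 607, and in siAtf3 control library 2 had 422 CPM and the other 3 had 496 to 519.8.

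**Figure D1:**
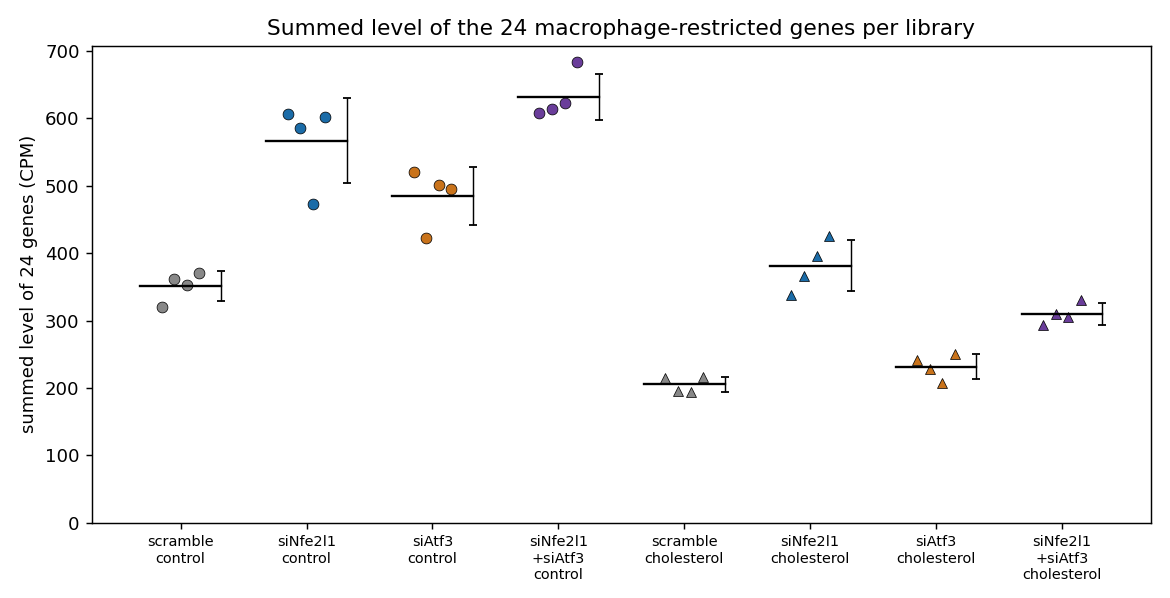
Summed level of the 24 restricted macrophage genes (CPM, linear axis from 0) in each of the 32 libraries by group, with circles for control medium and triangles for cholesterol. Long bars are group means and error bars the SD of 4 libraries; the means run from 205 CPM (scramble, cholesterol) to 632 CPM (double-silenced, control).

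Silencing Nfe2l1 went with higher macrophage genes in cells that also carried Atf3 siRNA. The siAtf3 and double-silenced libraries compared here lie outside the comparisons known to have been in view when the members were chosen. In control medium 16 of the 32 members rose and none fell, against 3.71% of all genes called higher. At an unadjusted p under 0.05, 27 members were higher and none lower with edgeR, and DESeq2's adjusted calls were 21 higher and none lower. All 32 log2 fold changes were above 0, from 0.16 (Mpeg1) to 0.66 (C1qa), with a median of 0.42 beside -0.00 over all genes tested. Without siAtf3 control library 2, whose macrophage sum was lowest in its group, 10 members passed and the median was 0.35. Spi1, Tyrobp, C5ar1, Lgals3, Cybb and Apobec1 then missed the threshold (adjusted p from 0.0587 for Apobec1 to 0.143 for Lgals3). Lgals3 also missed it without siAtf3 control library 3 or 4 or double-silenced control library 1, 2 or 4 (adjusted p 0.0547 to 0.0872). In cholesterol 15 members rose and none fell, against 5.4% of all genes, with a median of 0.43 beside 0.01. There 29 were higher and none lower at an unadjusted p under 0.05, and DESeq2 called 19 higher and none lower. Between scramble and siNfe2l1 cells, the comparison that was in view when the genes were chosen, the medians were 0.67 in control medium and 0.92 in cholesterol. In that comparison all 32 values were above 0 in control medium and 31 in cholesterol, the exception being Lgals3 (-0.32 ± 0.11).

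Markers of other cells of the culture rose with Nfe2l1 siRNA in siAtf3 cells too. In control medium 7 of 14 adipocyte, 3 of 11 fibroblast and precursor and 1 of 10 endothelial markers rose, with medians of 0.16, 0.09 and 0.13. In cholesterol 3, 7 and 4 of them rose, with medians of 0.05, 0.29 and 0.21. Over all genes 3.71% were called higher in control medium and 5.4% in cholesterol. None of these markers fell by edgeR's or DESeq2's adjusted p in either medium, and at an unadjusted p under 0.05 edgeR had 1 fibroblast marker lower in control medium and 1 adipocyte marker lower in cholesterol. Their part in the rise of the macrophage genes was not tested.

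The complement genes C1qa, C1qb and C1qc encode the chains of C1q, which tags debris for uptake and which macrophages make in tissue. C1qa was at 16.5, 13.2, 18.2 and 17.99 CPM in the siAtf3 control libraries and at 25.7, 25.2, 24.4 and 28.9 CPM in the double-silenced ones. All double-silenced libraries were higher, by 0.66 ± 0.11 on the log2 scale (± SE, edgeR adjusted p = 8e-05). In cholesterol the same libraries had 5.64, 5.59, 4.73 and 7.58 CPM and 8.83, 9.01, 9.16 and 9.22 CPM, again without overlap (0.63 ± 0.13, adjusted p = 0.00108). C1qb went from 32.4, 27.9, 32.7 and 30.7 to 39.9, 38.7, 41.6 and 47.4 CPM in control medium (0.44 ± 0.10, adjusted p = 0.00375). C1qc went from 27.4, 20.7, 24.5 and 26.5 to 34.9, 30.8, 36.9 and 40.7 CPM (0.53 ± 0.09, adjusted p = 9.55e-05). Both rose in cholesterol too, by 0.57 ± 0.11 and 0.57 ± 0.10. In the comparison with scramble, C1qa had 10.1, 10.7, 13.4 and 12.1 CPM with scramble and 23.3, 24.2, 18.4 and 27.02 CPM with siNfe2l1 in control medium.

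Csf1r encodes the receptor for the macrophage growth factors CSF1 and IL-34. It was at 15.2, 11.8, 14.7 and 15.4 CPM with siAtf3 and at 20.6, 22.9, 21.6 and 23.1 CPM in double-silenced control libraries (0.63 ± 0.10, adjusted p = 9.34e-05). In cholesterol it was at 5.64, 4.88, 3.57 and 4.96 CPM and 7.83, 7.92, 7.902 and 8.05 CPM (0.74 ± 0.13, adjusted p = 0.000122). Neither pair of groups overlapped. Spi1, which encodes PU.1, went from 10.5, 10.2, 13.8 and 11.8 to 14.3, 15.5, 14.5 and 16.8 CPM in control medium (0.40 ± 0.11, adjusted p = 0.0265) and rose by 0.50 ± 0.12 in cholesterol. In control medium Spi1 missed the threshold without siAtf3 library 1 or 2 or double-silenced library 2 or 4 (adjusted p 0.0536 to 0.114).

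Of the Fc receptor and adaptor group, Trem2, a lipid receptor, and Tyrobp, the adaptor through which it signals, rose in control medium, and Trem2 also in cholesterol (0.51 ± 0.11). Trem2 was at 30.5, 23.5, 30.5 and 30.3 CPM with siAtf3 and 36.9, 37.7, 37.95 and 42.6 CPM in double-silenced libraries (0.44 ± 0.10, adjusted p = 0.0047). Tyrobp rose by 0.48 ± 0.12 there and stood at 0.37 ± 0.14 in cholesterol, where it did not pass (adjusted p = 0.0911). Tyrobp missed the threshold in control medium without double-silenced library 4 as well (adjusted p = 0.0664). Fcer1g, the adaptor chain of Fc receptors, stood at 0.31 ± 0.11 in control medium and passed in cholesterol (0.39 ± 0.12). Fcer1g, Cd53, the membrane protein gene Ms4a7 and Plek passed in cholesterol with all libraries and lost their calls in 6 to 8 of the 8 fits that left out 1 library. Without siAtf3 cholesterol library 2 their adjusted p-values were 0.167, 0.167, 0.163 and 0.167. The high-affinity IgG receptor Fcgr1 and the fungal pattern receptor Clec4n passed in neither medium, at 0.50 ± 0.16 and 0.27 ± 0.14 in control medium.

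Among receptors of microbial products and complement, C5ar1, the receptor of the complement fragment C5a, rose in control medium from 7.65, 6.403, 8.15 and 7.798 to 11.2, 10.5, 10.97 and 11.8 CPM (0.57 ± 0.15, adjusted p = 0.0145). Cd14 and Cd180, which help recognise bacterial lipopolysaccharide, passed in neither medium. Of the scavenger and endocytic receptors, Mrc1, the mannose receptor, rose by 0.49 ± 0.11 and 0.56 ± 0.12. Cd68, a lysosomal membrane protein of macrophages, was at 43.03, 31.4, 40.8 and 38.2 CPM with siAtf3 and at 51.2, 48.7, 50.2 and 52.4 CPM in double-silenced control libraries. These groups did not overlap (0.40 ± 0.08, adjusted p = 0.00147), nor did the cholesterol groups (26.9, 25.01, 23.98 and 25.7 against 33.4, 32.6, 35.04 and 35.7 CPM, adjusted p = 0.000876).

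The F4/80 antigen gene Adgre1 was at 14.7, 12.2, 13.2 and 14.4 CPM with siAtf3 and at 18.4, 19.2, 19.03 and 19.7 CPM in double-silenced control libraries (0.49 ± 0.10, adjusted p = 0.00193). It rose in cholesterol as well (0.56 ± 0.13), with every double-silenced library above every siAtf3 library. Ctss, a protease of antigen processing, rose by 0.54 ± 0.11 and 0.59 ± 0.11, and Cybb, a subunit of the phagocyte oxidase, by 0.42 ± 0.11 and 0.62 ± 0.13. Cybb missed the threshold in control medium without double-silenced library 3 as well (adjusted p = 0.058). Ptprc, which encodes the leukocyte phosphatase CD45, was at 7.301, 6.86, 7.49 and 6.04 CPM with siAtf3 and 8.58, 8.85, 8.44 and 8.195 CPM in double-silenced control libraries. Its groups did not overlap, but the difference did not pass over all genes (0.30 ± 0.14, adjusted p = 0.242). In cholesterol its groups overlapped (0.38 ± 0.16, adjusted p = 0.147).

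**Figure D2:**
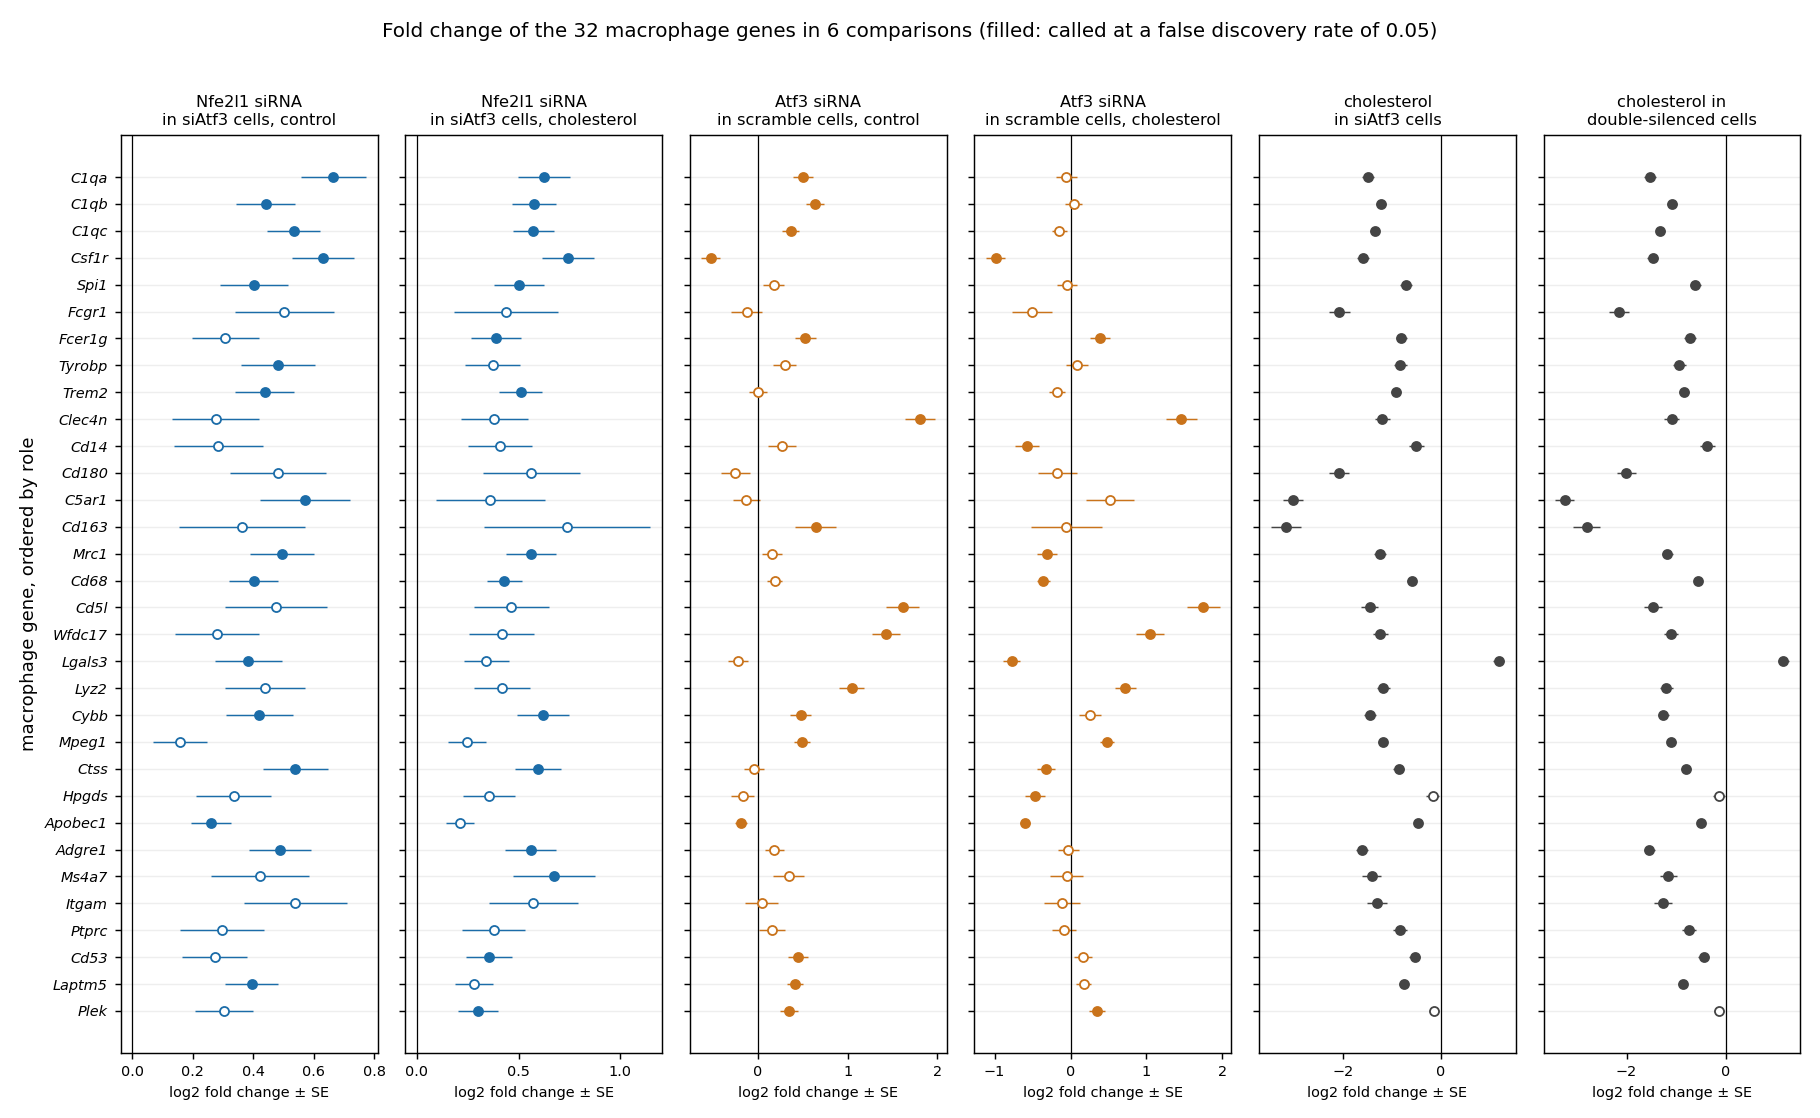
Log2 fold change ± SE (x axis, linear; scales differ between panels) of the 32 genes, ordered by role, in 6 comparisons. Filled points passed the test over all genes at a false discovery rate of 0.05: 16 and 15 with Nfe2l1 siRNA in siAtf3 cells, 16 and 15 with Atf3 siRNA, and 30 in each cholesterol comparison.

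The comparison of siNfe2l1 with scramble, in view when the genes were chosen, is given without a test. Csf1r was at 19.1, 19.4, 20.7 and 23.03 CPM with scramble and at 34.6, 35.4, 26.5 and 35.7 CPM with siNfe2l1 in control medium, where library 3 was lowest. Adgre1 was at 9.95, 13.3, 12.1 and 12.5 CPM and 19.6, 20.6, 13.5 and 19.6 CPM, and Trem2 at 26.98, 27.9, 30.3 and 29.4 CPM and 43.2, 46.7, 33.98 and 48.7 CPM. For all of these the siNfe2l1 libraries were above the scramble libraries. In cholesterol Csf1r had 10.1, 7.796, 9.46 and 10.2 CPM with scramble and 14.4, 14.6, 19.2 and 15.9 CPM with siNfe2l1, and Cd5l had 7.77, 6.04, 4.41 and 7.25 CPM and 12.6, 18.4, 21.6 and 24.6 CPM. Cd180 stood at 0.70 ± 0.16 in control medium and 1.68 ± 0.21 in cholesterol in this comparison. Library 3 of siNfe2l1 control had the lowest value of its group for the restricted sum and for Csf1r, Adgre1, Cd5l and C5ar1.

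The remaining members filled the range between these examples. Laptm5, a lysosomal membrane protein of blood cells, was at 32.8, 25.6, 28.8 and 29.6 CPM with siAtf3 and 37.4, 35.1, 40.5 and 40.3 CPM in double-silenced control libraries, without overlap (0.39 ± 0.09, adjusted p = 0.00355). Ms4a7, Itgam, Cd163, Wfdc17 and Cd53 had overlapping groups there, and their folds ran from 0.27 ± 0.11 (Cd53) to 0.54 ± 0.17 (Itgam). Lyz2 had fully separate groups, 204, 151, 202 and 195 CPM against 254, 253, 244 and 269 CPM, and just missed the threshold (0.44 ± 0.13, adjusted p = 0.0514). Cd5l was separate too (0.47 ± 0.17, adjusted p = 0.106), with library spread of 46.2 to 65.3 CPM in siAtf3 control.

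Set against the other macrophage genes, most members kept near their share with Nfe2l1 siRNA in siAtf3 cells. For this, the total of each library was replaced by its summed restricted counts, leaving the gene itself out, so that a gene that kept its share of macrophage RNA has a relative log2 fold change of 0. In control medium 29 of the 32 members lay within 0.25 of 0, a band wide beside their median rise of 0.42. The test called 3. C1qa gained share (0.29 ± 0.10, adjusted p = 0.0122), as did Csf1r (0.26 ± 0.10, adjusted p = 0.0223). Mpeg1, which encodes a pore-forming protein of phagocytes, lost share (-0.29 ± 0.11, adjusted p = 0.0212). On this scale 62.1% of all genes were called, and a call needed an unadjusted p of at most 0.031. Mpeg1 was at 101, 97.8, 104 and 99.7 CPM with siAtf3 and 105, 113, 116 and 115 CPM in double-silenced control libraries. Its level was higher in every double-silenced library, by the smallest fold of the 32. Without siAtf3 control library 2, 1 member was called. In cholesterol 29 members again lay within 0.25, with Cd163 and Ms4a7 outside it but not called, and Csf1r was the 1 member called (0.33 ± 0.11, adjusted p = 0.00929), against 63.3% of all genes. Without siAtf3 cholesterol library 3 no member was called there. Between scramble and siNfe2l1 cells, given without a test, 26 of the 32 lay within 0.25 in control medium (range -0.57 to 0.32). In cholesterol 21 did (range -1.18 to 0.78).

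The rise with Nfe2l1 siRNA was not shown to differ between media. In the test of that difference in siAtf3 and double-silenced cells, edgeR called 0 of the 32 members and 0% of all genes. At an unadjusted p under 0.05 it counted 0 members and 666 genes. DESeq2 called 0 members and 0 genes, with 642 genes at an unadjusted p under 0.05.

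**Figure D3:**
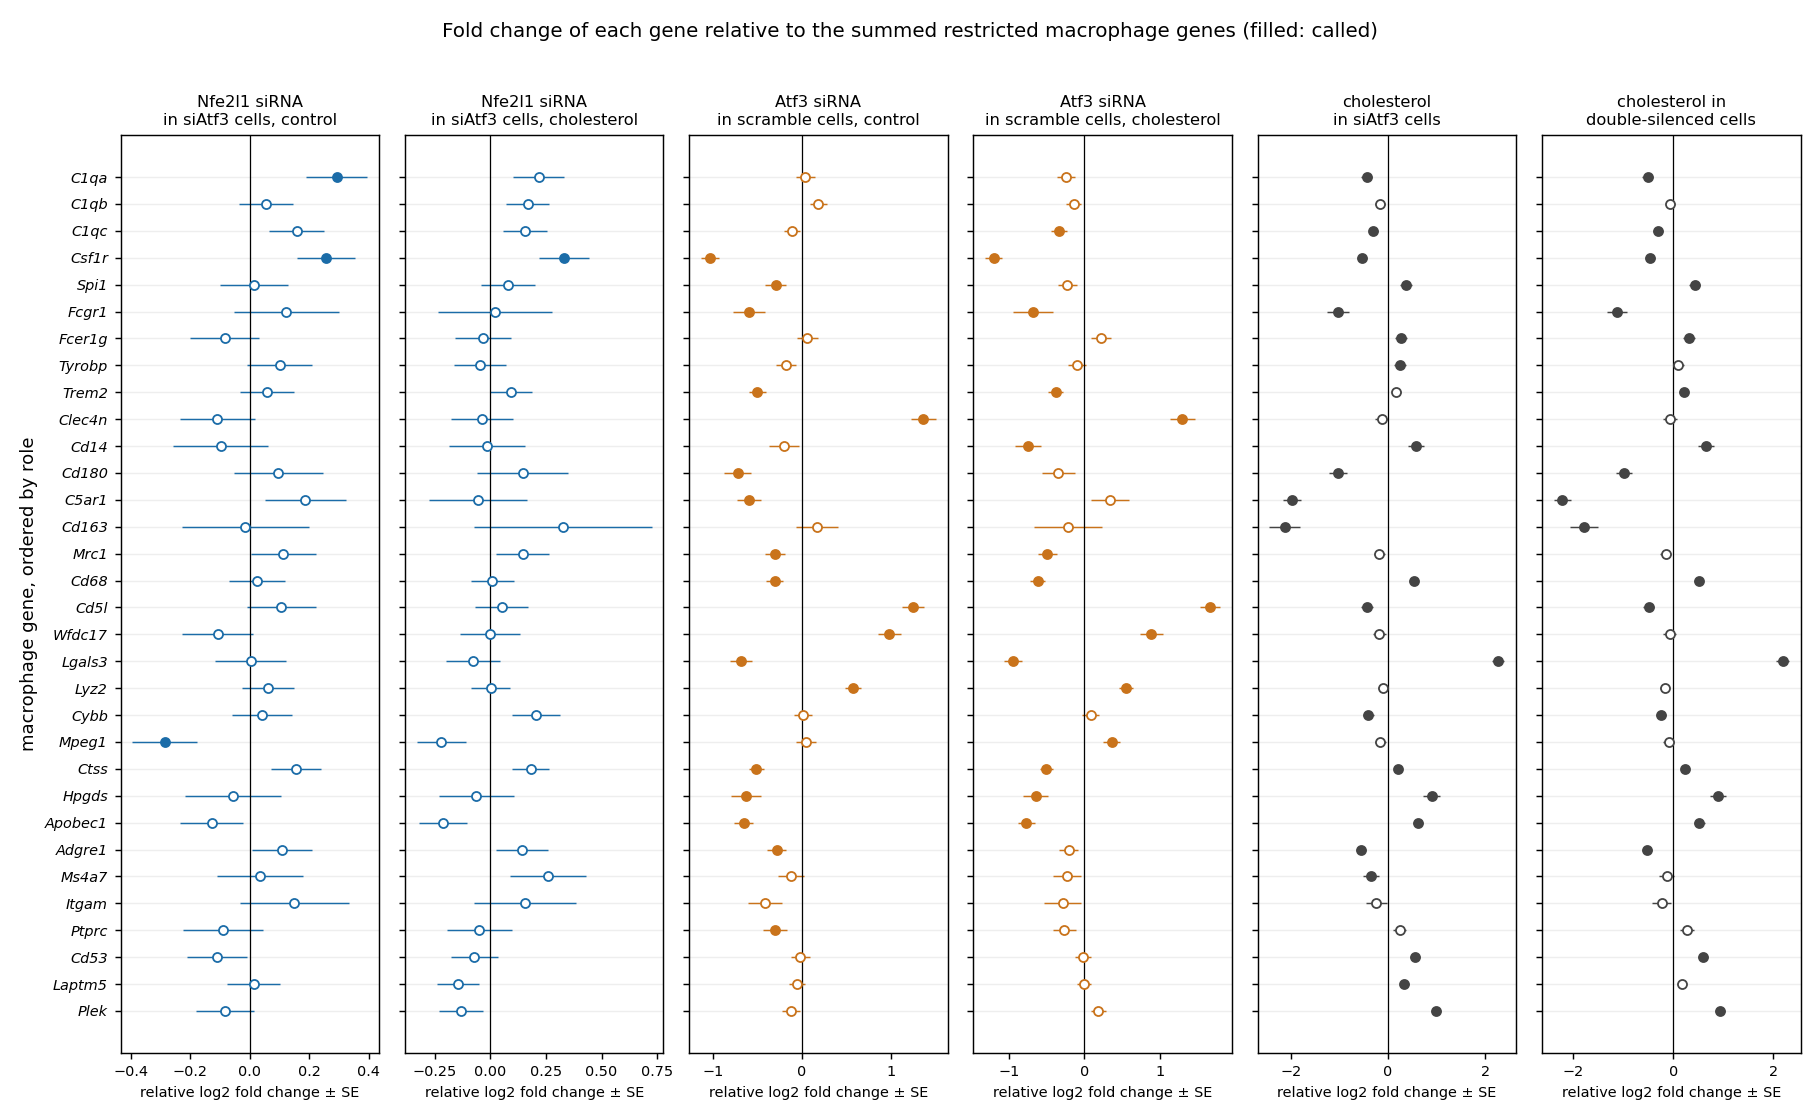
Relative log2 fold change ± SE (x axis, linear; scales differ between panels) of the 32 genes against the summed restricted genes of the same library, with 0 for a gene that kept its share. Filled points passed the test: 3 and 1 of 32 with Nfe2l1 siRNA in siAtf3 cells, 18 and 16 with Atf3 siRNA, and 23 and 21 with cholesterol.

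With cholesterol nearly all macrophage genes fell, and unevenly. The part of cholesterol and that of its carrier cannot be told apart unless control cells received the carrier. In siAtf3 cells 29 of the 32 members fell and 1, Lgals3, rose, against 28.6% of all genes called lower. The median log2 fold change was -1.19 beside 0.00 over all genes. In double-silenced cells 29 fell and Lgals3 rose, against 28.9% of all genes, with a median of -1.10. Cd14 was called there with all libraries and missed the threshold in 5 of 8 fits that left out 1 library (adjusted p up to 0.096, without cholesterol library 1). Hpgds, which encodes a prostaglandin D synthase, and Plek, which encodes the signalling protein pleckstrin, passed in neither. Plek was at 20.5, 16.6, 15.99 and 19.3 CPM in siAtf3 control libraries and 16.8, 15.7, 16.0 and 17.4 CPM in cholesterol (-0.14 ± 0.10, adjusted p = 0.244). With scramble and siNfe2l1 the medians were -0.81 and -0.55, given without a test.

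The receptors Cd163, C5ar1, Fcgr1 and Cd180 were left at the smallest share of their level. C5ar1 went from 7.65, 6.403, 8.15 and 7.798 CPM in siAtf3 control libraries to 0.793, 1.11, 0.455 and 1.31 CPM in cholesterol, which left 12.2% (-3.03 ± 0.21, adjusted p = 9.5e-15). In double-silenced cells it went from 11.2, 10.5, 10.97 and 11.8 to 1.43, 1.08, 0.699 and 1.496 CPM (-3.24 ± 0.19, adjusted p = 1.81e-16). No cholesterol library reached any control library. Cd180 went from 5.09, 4.37, 4.36 and 4.72 to 0.919, 1.07, 0.9802 and 1.39 CPM with siAtf3 (-2.08 ± 0.20, adjusted p = 5.2e-11) and fell by 2.00 ± 0.18 in double-silenced cells. Fcgr1 went from 3.23, 2.38, 3.09 and 2.77 to 0.626, 0.7399, 0.595 and 0.731 CPM (-2.08 ± 0.22, adjusted p = 1.87e-10). Cd163 had 2.91, 1.399, 1.83 and 1.91 CPM in control medium and 0.167, 0.259, 0.245 and 0.192 CPM in cholesterol (-3.18 ± 0.31, adjusted p = 4.01e-11), where single libraries rest on few counts.

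Adgre1, Csf1r and the C1q genes fell by more than the members' median in siAtf3 cells. Adgre1 went from 14.7, 12.2, 13.2 and 14.4 to 4.51, 5.18, 3.68 and 4.502 CPM with siAtf3, which left 32.8% (-1.61 ± 0.12, adjusted p = 3.63e-14). Csf1r went from 15.2, 11.8, 14.7 and 15.4 to 5.64, 4.88, 3.57 and 4.96 CPM, which left 33.2% (-1.59 ± 0.12, adjusted p = 8.97e-14). C1qa was left at 35.7%, C1qb at 42.98% and C1qc at 39.1% of their control levels in siAtf3 cells. In double-silenced cells C1qa went from 25.7, 25.2, 24.4 and 28.9 to 8.83, 9.01, 9.16 and 9.22 CPM (-1.53 ± 0.11) and Csf1r from 20.6, 22.9, 21.6 and 23.1 to 7.83, 7.92, 7.902 and 8.05 CPM (-1.48 ± 0.11). For all of these, control and cholesterol libraries were fully apart.

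Other members fell by less than that median. Cd68 went from 43.03, 31.4, 40.8 and 38.2 CPM in siAtf3 control libraries to 26.9, 25.01, 23.98 and 25.7 CPM in cholesterol, which left 66.1% (-0.60 ± 0.08, adjusted p = 2.3e-07). Spi1 was left at 61.0% (10.5, 10.2, 13.8 and 11.8 to 7.22, 6.84, 6.79 and 7.39 CPM, adjusted p = 4.87e-06) and Ptprc at 56.3% (7.301, 6.86, 7.49 and 6.04 to 4.803, 4.51, 2.87 and 3.46 CPM). The tetraspanin gene Cd53 was left at 69.1% and the lysosomal gene Laptm5 at 59.2%. Trem2 was left at 53.2%, from 30.5, 23.5, 30.5 and 30.3 to 16.9, 16.4, 13.3 and 14.5 CPM. None of these groups overlapped. Among the members that other cells also express, Apobec1, an RNA-editing deaminase, was left at 72.8% and Cd14 at 70.8%, with overlapping groups for Cd14.

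Lgals3 rose with cholesterol in siAtf3 and double-silenced cells and was higher in the scramble and siNfe2l1 cholesterol libraries too. It was at 409, 332, 389 and 396 CPM with siAtf3 in control medium and at 986, 800.2, 845 and 864 CPM in cholesterol (1.20 ± 0.11, adjusted p = 4.51e-10). With scramble, libraries had 415, 436, 466 and 462 CPM in control medium and 1827, 1347, 1490 and 1319 CPM in cholesterol. Adipocytes and fibroblasts also express this gene, and which cells carried its rise was not tested.

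Relative to the other macrophage genes, cholesterol changed the make-up of the set. In siAtf3 cells 12 members gained share and 11 lost share, against 85.8% of all genes called on this scale. The gains were led by Lgals3 (2.26 ± 0.13), Plek (0.98 ± 0.10), Hpgds (0.89 ± 0.17) and Apobec1 (0.61 ± 0.11), with Cd14 (0.57 ± 0.17), Cd53 (0.56 ± 0.10) and Cd68 (0.53 ± 0.10) after them. The losses were led by Cd163 (-2.12 ± 0.32), C5ar1 (-1.97 ± 0.18), Cd180 (-1.03 ± 0.18) and Fcgr1 (-1.02 ± 0.23), followed by Adgre1 (-0.56 ± 0.11) and Csf1r (-0.54 ± 0.11). In double-silenced cells 11 gained and 10 lost share, against 85.4% of all genes. There Plek stood at 0.94 ± 0.10 and C5ar1 at -2.22 ± 0.17. The 8 members called in neither background were Lyz2 (-0.11 ± 0.09 and -0.17 ± 0.09), Clec4n, Wfdc17, Mrc1, Mpeg1, C1qb, Itgam and Ptprc. Because a share is set by the sum it is measured against, a gain can be a slower fall.

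Markers of other cells of the culture moved with cholesterol too. All 11 fibroblast and precursor markers tested fell in siAtf3 cells (median -1.36), as did 9 of 10 endothelial markers (median -0.98), while 11 of 14 adipocyte markers rose (median 0.32). Their part in the fall of the macrophage genes, which share the library total with them, was not tested.

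Atf3 silencing went with more macrophage genes higher than lower in control medium, and with calls in both directions in cholesterol. This comparison shares the scramble libraries with those in view when the members were chosen. That choice favoured genes low with scramble beside siNfe2l1. The calls and p-values here are therefore not independent of it. In control medium 14 members rose and 2 fell, against 18.1% of all genes called higher and 18.2% called lower, with a median of 0.28 beside 0.01. In cholesterol 7 rose and 8 fell, shares near those over all genes (23% and 27.4%), with a median of -0.05 beside -0.02. With library totals in place of TMM the median of all genes was 0.15 in control medium and 0.17 in cholesterol. Calls among members were then 21 higher and 1 lower in control medium, and 10 higher and 4 lower in cholesterol. The share of all genes called under this scaling is not given, so these counts are not read as particular to the members. In cholesterol the members' median turned to 0.13, below the 0.17 of all genes. The median in cholesterol also turned above 0 without scramble library 4 (0.07) or siAtf3 library 3 (0.05). Of 11 fibroblast and precursor markers, 8 fell and 1 rose in control medium (median -0.28), and 9 fell and none rose in cholesterol (median -0.77; DESeq2 also called none higher, and edgeR had none higher at an unadjusted p under 0.05). Of 14 adipocyte markers, 7 fell and 1 rose in control medium and 10 fell and 1 rose in cholesterol (medians -0.13 and -0.28). The part of these cells in the result was not tested.

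Clec4n, Cd5l, Wfdc17 and Lyz2 rose most, in both media. Clec4n encodes the pattern receptor dectin-2. It was at 2.32, 3.65, 3.35 and 3.83 CPM with scramble and at 11.2, 8.99, 13.6 and 12.4 CPM with siAtf3 in control medium (1.81 ± 0.17, adjusted p = 1.2e-10). In cholesterol it was at 2.29, 1.802, 1.797 and 1.45 CPM and 4.302, 4.51, 4.45 and 6.89 CPM (1.46 ± 0.20, adjusted p = 2.51e-07). Every siAtf3 library lay above every scramble library in both media. Cd5l, a protein that macrophages secrete into blood, was at 15.6, 20.4, 22.4 and 17.9 CPM with scramble and at 65.3, 46.2, 60.6 and 62.04 CPM with siAtf3 (1.61 ± 0.18, adjusted p = 8.03e-08). In cholesterol it was at 7.77, 6.04, 4.41 and 7.25 CPM and 20.8, 19.4, 19.04 and 26.01 CPM (1.75 ± 0.22, adjusted p = 2.45e-07), again fully apart. Wfdc17, a secreted protein of activated macrophages whose promoter is printed above with that of Cd5l, went from 3.36, 5.03, 3.701 and 4.57 to 13.2, 9.52, 11.6 and 10.6 CPM in control medium (1.43 ± 0.16, adjusted p = 4.58e-09). It rose by 1.04 ± 0.19 in cholesterol. Lyz2 went from 83.6, 92.6, 90.7 and 98.2 to 204, 151, 202 and 195 CPM in control medium (1.04 ± 0.14, adjusted p = 7.33e-07) and rose by 0.72 ± 0.14 in cholesterol.

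These 4 stayed high when Nfe2l1 was silenced as well. In double-silenced control libraries Cd5l was at 76.6, 77.1, 76.1 and 95.2 CPM, Clec4n at 13.7, 13.1, 13.7 and 15.3 CPM and Wfdc17 at 12.5, 13.2, 12.6 and 16.1 CPM. Double-silenced libraries had the highest group means of all 8 groups for each of them, and Lyz2 had 254, 253, 244 and 269 CPM there. With siNfe2l1 alone Cd5l was at 40.03, 41.2, 24.4 and 42.4 CPM and Clec4n at 6.05, 4.98, 3.604 and 6.92 CPM in control medium.

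Csf1r moved the other way. It was at 19.1, 19.4, 20.7 and 23.03 CPM with scramble and at 15.2, 11.8, 14.7 and 15.4 CPM with siAtf3 in control medium, lower in all siAtf3 libraries (-0.53 ± 0.10, adjusted p = 0.000107). In cholesterol it was at 10.1, 7.796, 9.46 and 10.2 CPM and 5.64, 4.88, 3.57 and 4.96 CPM (-0.99 ± 0.13, adjusted p = 4.58e-08), also without overlap. Apobec1 fell in both media (-0.19 ± 0.07 and -0.60 ± 0.07), but missed the threshold in control medium without siAtf3 library 2 (adjusted p = 0.0634). In cholesterol Cd68 fell from 35.2, 29.8, 33.9 and 31.5 to 26.9, 25.01, 23.98 and 25.7 CPM (-0.36 ± 0.09, adjusted p = 0.000705) and Lgals3 by 0.78 ± 0.11, as did Cd14, Mrc1, Ctss and Hpgds. Mrc1 and Ctss missed the threshold without single libraries, with adjusted p up to 0.258 and 0.141 without siAtf3 library 3. With the replicate number as a block in the cholesterol libraries alone, a fit chosen after the data were seen, Mrc1 had an adjusted p of 0.0723. The C1q genes rose in control medium, C1qb from 19.6, 20.02, 17.8 and 22.1 to 32.4, 27.9, 32.7 and 30.7 CPM (0.64 ± 0.10, adjusted p = 6.09e-06). In cholesterol they stood at -0.05 ± 0.14 (C1qa), 0.04 ± 0.11 (C1qb) and -0.15 ± 0.10 (C1qc) and passed in neither direction. Trem2 (0.00 ± 0.10), Spi1 (0.18 ± 0.12), Adgre1 (0.18 ± 0.11) and Ptprc (0.16 ± 0.14) did not pass in control medium.

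**Figure D4:**
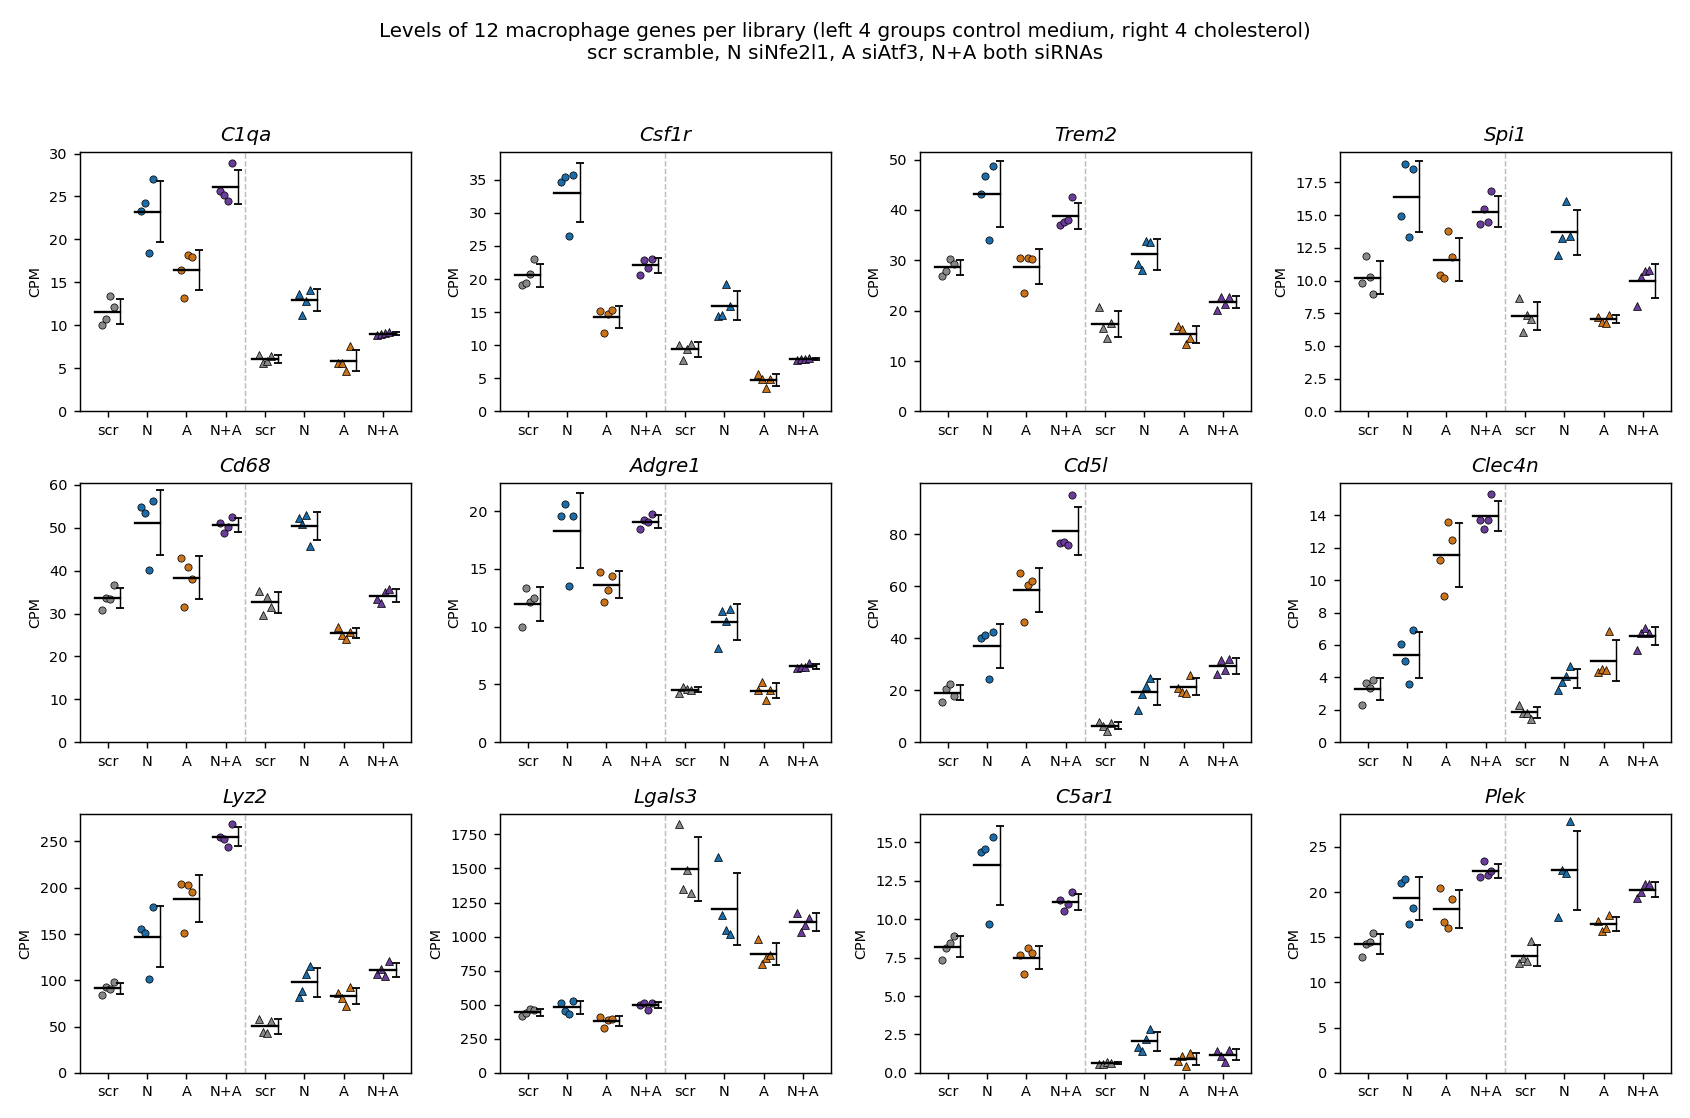
Level (CPM, linear axes from 0) of 12 macrophage genes in each of the 32 libraries, with control medium left of the dashed line and cholesterol right of it; bars are means and error bars the SD of 4 libraries. C1qa and Csf1r are higher with siNfe2l1 than with scramble in both media, Clec4n and Cd5l are highest where Atf3 is silenced in control medium, and Lgals3 alone of the 12 is higher in cholesterol in every siRNA group.

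The relative scale was read for Atf3 siRNA too. In control medium 4 members gained share, Clec4n (1.37 ± 0.14), Cd5l (1.25 ± 0.12), Wfdc17 (0.99 ± 0.13) and Lyz2 (0.58 ± 0.09), and 14 lost share, against 64.6% of all genes. Csf1r lost most (-1.04 ± 0.10, adjusted p = 1.69e-12), before Cd180 (-0.72 ± 0.15) and Lgals3 (-0.69 ± 0.12). In cholesterol 5 gained and 11 lost share, against 41.4% of all genes, and the gains were those 4 genes and Mpeg1 (0.36 ± 0.11). The C1q genes, Cybb, Fcer1g, Cd53 and Laptm5 lay within 0.25 of 0 in control medium. The 3 secreted or receptor genes Cd5l, Clec4n and Wfdc17 are themselves in the sum, which their rise enlarges.

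Libraries of one group showed how the members vary when siRNA and medium are the same. After group means were removed, the log2 level of each member was compared over the 32 libraries with that of the summed restricted genes without the member itself. Pearson's r had a median of 0.69 and was above 0.5 for 24 of the 32 members, against 3.485% of the 11220 genes whose mean log2 CPM was 2 or more. It was highest for Lyz2 (0.93) and Ctss (0.92), which other cells also express, and for Cd5l (0.85). It was lowest for Hpgds (-0.16), Apobec1 (-0.02), Cd14 (0.02) and Lgals3 (0.11), all of which other cells also express, followed by Fcgr1 (0.20), Cd163 (0.26) and Mpeg1 (0.28). Spearman's rho was 0.92 for Lyz2 and 0.82 for Cd5l. Without the 2 libraries farthest from the median of the sum, Pearson's r was 0.90 for Lyz2 and 0.80 for Cd5l. It was then above 0.5 for 21 members, with Spi1 at 0.38, Fcer1g at 0.37 and Mrc1 at 0.48 no longer among them. The points share library depth and scaling, so these values are a description.

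**Figure D5:**
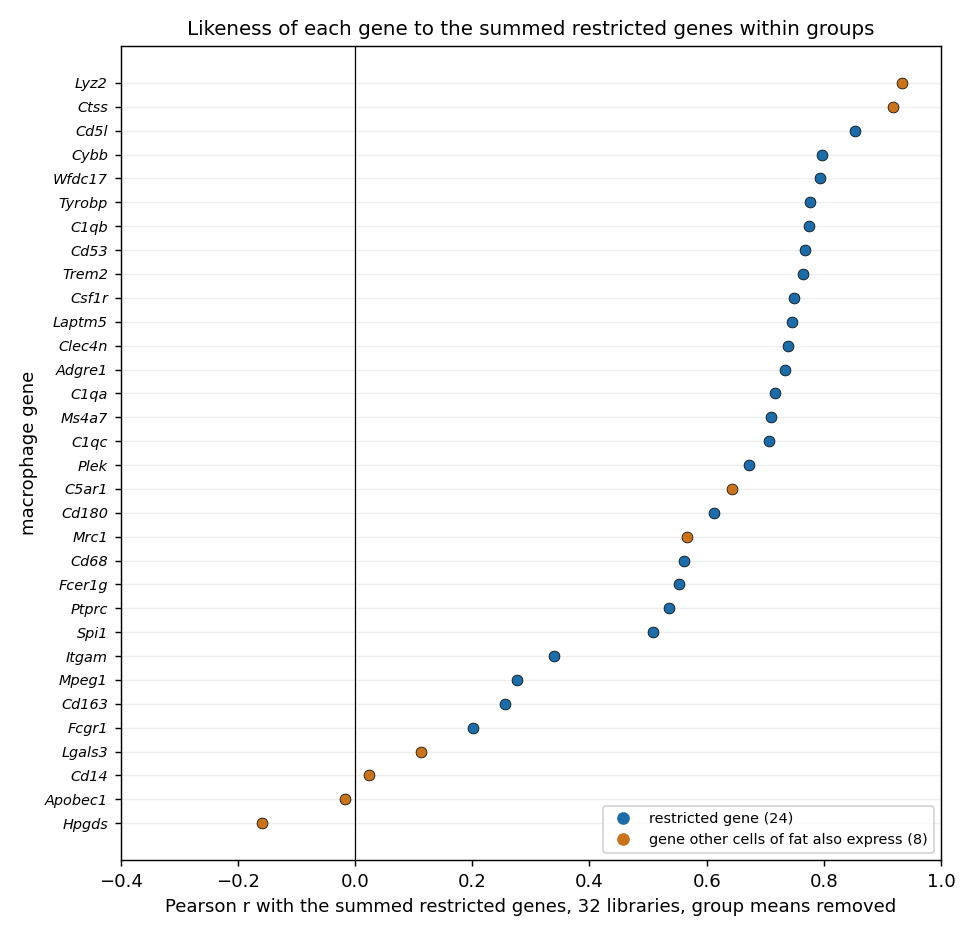
Pearson's r (x axis) over 32 libraries between each gene's log2 CPM and that of the summed restricted genes, after group means were removed; blue marks restricted genes and orange those that other cells of fat also express. Values run from -0.16 (Hpgds) to 0.93 (Lyz2), and 4 of the 8 orange genes lie below every blue gene.

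Outside all lists, the genes most like the summed restricted genes by this measure were C3ar1, the receptor of the complement fragment C3a (r = 0.86), Clec4d, a lectin receptor of myeloid cells (0.82), and Rnf128, a ubiquitin ligase gene (0.82). Cfp, which encodes the complement protein properdin (0.79), Myo1f (0.79), Ly9 (0.78), Anp32a (0.77), Snrpd3 (0.75), Cd300a (0.75) and Dynll1 (0.71) came after them. C3ar1 stood at 0.49 with Nfe2l1 siRNA in siAtf3 control cells and at -1.35 with cholesterol in siAtf3 cells, while Anp32a and Snrpd3 stood at 0.03 and 0.01 with Nfe2l1 siRNA.

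Of a list of 56 other macrophage genes, 53 were tested. With Nfe2l1 siRNA in siAtf3 cells 20 of 53 rose in control medium and 18 in cholesterol, and none fell in either. DESeq2 called 21 and 22 higher and none lower, and at an unadjusted p under 0.05 edgeR had none lower in control medium and 1 in cholesterol. Examples were the leukocyte actin-binding gene Lcp1 (0.31 ± 0.05), the phagocytosis checkpoint receptor Sirpa (0.23 ± 0.05) and the scavenger receptor Msr1 (0.62 ± 0.13, adjusted p = 0.00171). Cholesterol in siAtf3 cells lowered 43 and raised 4, with a median of -1.17 beside 0.00 over all genes. The transcription factor Irf5 fell by 2.26 ± 0.09, and the bacterial lipopeptide receptor Tlr2 rose by 1.92 ± 0.14. With Atf3 siRNA 12 rose and 2 fell in control medium, where 18.1% of all genes were called higher and 18.2% lower. The rises were led by Clec7a, the beta-glucan receptor (1.45 ± 0.11, adjusted p = 7.58e-13). In cholesterol 12 rose and 8 fell, where 23% of all genes were called higher and 27.4% lower.

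Of 15 genes of lipid-associated macrophages, many of which adipocytes and fibroblasts also express, 7 rose with Nfe2l1 siRNA in control medium and none fell (median 0.16). DESeq2 called 8 higher and none lower, and edgeR had 1 lower at an unadjusted p under 0.05. Among those that rose were Mmp12, a macrophage elastase (0.53 ± 0.10), and Gpnmb (0.36 ± 0.06). In cholesterol 8 rose and none fell, with edgeR and with DESeq2 (none lower at an unadjusted p under 0.05). With Atf3 siRNA in control medium 3 rose and 8 fell, where 18.1% of all genes were called higher and 18.2% lower. The protease gene Ctsb fell by 1.01 ± 0.04. Cholesterol in siAtf3 cells raised 5 and lowered 4, shares near those over all genes. Of all 16984 genes tested, 4997 were called higher there and 4863 (28.6%) lower. Of 10 tested genes of resident and perivascular macrophages, 5 rose with Nfe2l1 siRNA in control medium, Folr2, a folate receptor, by 0.79 ± 0.15. In cholesterol 2 of the 10 rose with edgeR and 3 with DESeq2. Cholesterol in siAtf3 cells lowered 8 of the 10 and raised 2. Timd4 and 4 other genes of that list stayed under 10 counts in every library.

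Of 9 macrophage growth factors and attractants, none passed with Nfe2l1 siRNA in control medium with edgeR or DESeq2 (1 at an unadjusted p under 0.05), and 4 rose in cholesterol, Csf1 by 0.29 ± 0.05 (adjusted p = 6.94e-05). With Atf3 siRNA Csf1 fell in both media (-0.28 ± 0.05 and -0.33 ± 0.05). Csf1 encodes a ligand of the Csf1r product. Of 13 tested inflammatory macrophage genes, edgeR called 0 with Nfe2l1 siRNA in either medium. At an unadjusted p under 0.05 there were 4 higher and 1 lower in control medium and 5 higher in cholesterol, and DESeq2 called 0 higher and 1 lower in control medium and 0 in cholesterol. With Atf3 siRNA 2 of the 13 rose and 3 fell in each medium. Over all genes 18.1% were called higher and 18.2% lower in control medium, and 23% and 27.4% in cholesterol. The chemokine gene Ccl3 was among those that rose in control medium (1.66 ± 0.19). Il1b stayed under 10 counts in every library.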

How the data were processed

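Poly(A) RNA of 32 libraries of mouse primary white adipocytes, 4 in each of 8 groups, was measured by RNA sequencing. The authors deposited whole-number counts per gene, and per the submitters' processing notes the tools and build were fastp, HISAT2 2.0.5, featureCounts 1.5.0-p3 and GRCm39. How strand and reads matching several genes were handled is not given in the sources used here. A C added to a column name was read as cholesterol. The members and lists were chosen with earlier results of these data known.

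From the counts, genes were kept with edgeR's filter (minimum count 10 in group-sized sets, minimum total 15), which left 16984 of 56748 genes. Libraries were scaled with TMM (factors 0.886 to 1.09), and 8 group means were fitted with edgeR 4.0.16 (R 4.3.3) by robust quasi-likelihood, with 24 residual degrees of freedom. P-values were adjusted over all genes by Benjamini and Hochberg and those under 0.05 were called. CPM were computed on scaled totals, and SE is the log2 fold change divided by the square root of F. A second fit replaced each library total by its summed restricted macrophage counts. Tests covered 6 comparisons of groups and 1 difference between media; comparisons known to have been in view when the members were chosen were described only. Scripts were tested on simulated data.

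The labels name no shared source for libraries with the same replicate number. Between scramble and siAtf3 cholesterol libraries all 4 same-numbered pairs had deviations from their group means that correlated above 0.1 (0.362, 0.249, 0.16 and 0.281). These were taken as paired from the data, but the main fit held no term for pairing. Fits with a replicate block are given below. Of the other 5 comparisons none had all 4 pairs above 0.1.

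Among libraries of a group, no pair was a copy: all 48 pairs differed by more than sampling noise (chi-square per degree of freedom 2.62 to 40.5). Values in every library were to be given for the members with the 4 smallest adjusted p in any tested comparison, the 3 C1q genes, Csf1r, Adgre1, Cd68, Trem2, Spi1 and Ptprc, and members called on the relative scale. Of each list, up to 4 called genes with the smallest adjusted p were to be named, and of other genes the 10 most like the summed restricted genes. Not all values so chosen are printed. DESeq2 1.42.0, size factors, library totals, no filter, a replicate block, fewer libraries and other reference genes were tried.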

Additional observations from a re-analysis of the deposited data

Results flagged for a closer look

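Of 264 sets of 4 library values (32 genes and the restricted sum in 8 groups), 13 held 1 library whose gap to the nearest of the others exceeded Dixon's 95% critical value, where chance gives about 1 in 20, or 13.2. Library 3 of siNfe2l1 control accounted for 5 of the 13: it was below the other 3 libraries for Csf1r (26.53 CPM), C5ar1 (9.662 CPM), Cd5l (24.35 CPM), Adgre1 (13.5 CPM) and the restricted sum (472.7 CPM).

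The other 8 lay in 8 different libraries. Trem2 was at 23.48 CPM in siAtf3 control library 2, Mrc1 at 9.862 CPM in scramble control library 1, and Cd5l at 95.25 CPM in double-silenced control library 4. In cholesterol, Fcgr1 was at 2.455 CPM in siNfe2l1 library 3, Clec4n at 6.887 CPM in siAtf3 library 4, and Apobec1 at 43.91 CPM in scramble library 1. Ptprc was at 6.623 CPM in double-silenced cholesterol library 4, and Laptm5 at 18.8 CPM in double-silenced cholesterol library 2.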

How the results depend on the processing

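Called changes of members kept their direction under each alternative run, with 2 exceptions on the relative scale. With only C1qa, C1qb and C1qc as the reference, cholesterol in double-silenced cells gave Cybb a relative log2 fold change of 0.0031 (-0.24 otherwise), and C1qb, not called otherwise (-0.06), one of 0.32. Members called higher with Nfe2l1 siRNA in siAtf3 control cells numbered 26 when only the groups compared were fitted and 16 with all groups. For Atf3 siRNA, library totals in place of TMM left 1 member lower in control medium and 4 in cholesterol. Members called relative to the others with Nfe2l1 siRNA in cholesterol numbered 1, and 2 with the replicate block, 5 with the C1q genes as reference and 2 with a reference without Cd5l, Clec4n and Wfdc17, an alternative chosen after the data were seen. The cause was not tested. In this section the share of all genes called under each alternative is not given. Changed counts are therefore not read as particular to the members.

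Leaving out 1 library at a time, members called higher with Nfe2l1 siRNA in siAtf3 cells ranged from 10 to 16 in control medium and from 11 to 17 in cholesterol. With cholesterol 29 members fell in siAtf3 cells in every such fit, and 28 to 29 in double-silenced cells. With Atf3 siRNA 13 to 16 rose and 1 to 2 fell in control medium, and 7 to 9 rose and 6 to 7 fell in cholesterol. The interaction gave 0 in all 16 fits. Members called relative to the others ranged from 1 to 3 and 0 to 3 with Nfe2l1 siRNA, from 19 to 26 and 19 to 21 with cholesterol, and from 16 to 19 and 15 to 16 with Atf3 siRNA.

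Over the 6 comparisons 8 of 24 same-numbered pairs had deviations correlated above 0.1 (range -0.127 to 0.362), and 12 of 32 libraries correlated best with their own number. With the replicate block 19 members rose with Nfe2l1 siRNA in siAtf3 control cells and 20 in cholesterol (16 and 15 without it). With Atf3 siRNA in cholesterol 7 rose and 8 fell under the block. With the block in the cholesterol libraries alone, chosen after the data were seen, 18 members rose with Nfe2l1 siRNA and 3 were called relative to the others, and with Atf3 siRNA 7 rose and 7 fell. There Mrc1 lost its call, as did Fcgr1 on the relative scale (adjusted p = 0.0642). Cd163, with as few as 2 counts in a library, carried the largest counting error.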
